A study of Mus musculus with 2 samples.

Results

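Serpins are a superfamily of proteins that share one fold, and most of them inhibit serine proteases. The genes described here were chosen by name alone, as all genes whose symbol is Serpin followed by a clade letter from a to i, a number and an optional letter. This gave 61 of the 37146 genes in the tables, of which 26 averaged 1 FPKM or more across the libraries. Clade A made up 24 of the 61 genes, and 23 of these lie side by side on chromosome 12. The data are RNA-seq of liver from CD-1 mice, an outbred laboratory strain. One group, NP, was given titanium dioxide nanoparticles by mouth at 50 mg per kg body weight per day, in a suspension treated with ultrasound for 30 min, and the other, Control, was given phosphate-buffered saline in the same volume. Each group was 1 library, and the age and sex of the mice, the length of dosing and the number of mice per library are not stated in the labels. With 1 library per group no difference has a replicate check, so every statement below describes 2 libraries and not the treatment.

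An inhibitory serpin presents an exposed stretch, the reactive centre loop, as bait. When a protease cuts the loop, the serpin changes shape and traps the enzyme in a covalent complex, so that each molecule acts once. Hepatocytes secrete most serpins of blood plasma, among them alpha-1-antitrypsin, antithrombin and C1 inhibitor, while clade B serpins mostly stay inside cells. Several serpins no longer inhibit proteases and instead carry hormones or act as chaperones. Mice have several copies of the genes for alpha-1-antitrypsin (Serpina1) and antichymotrypsin (Serpina3), and the number of copies differs between strains.

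The loop is shown first because it is the part of each copy that meets the protease and because close copies limit how reads can be assigned. The following sequences are the 60 coding bases that begin at the hinge of the loop in the transcript of each Serpina1 gene with the highest FPKM over both libraries. They are from GENCODE release M21 (build GRCm38), and capitals mark bases that differ from Serpina1a.
Serpina1a: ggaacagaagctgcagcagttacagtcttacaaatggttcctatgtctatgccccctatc
Serpina1b: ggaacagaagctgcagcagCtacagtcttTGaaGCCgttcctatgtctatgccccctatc
Serpina1c: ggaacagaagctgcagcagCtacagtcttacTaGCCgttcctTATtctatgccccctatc
Serpina1d: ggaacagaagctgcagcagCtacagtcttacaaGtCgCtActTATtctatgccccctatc
Serpina1e: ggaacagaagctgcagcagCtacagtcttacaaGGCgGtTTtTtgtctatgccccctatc
All 5 stretches lie in exon 5 of 5, on the minus strand of chromosome 12, and that of Serpina1a spans 103853771 to 103853830 in GRCm38. Serpina1b differed from Serpina1a at 6 of 60 bases, and Serpina1c, Serpina1d and Serpina1e at 8 each. No base before position 20 or after position 45 differed. Over the whole coding sequence of 1239 bases the 10 pairs of copies were 96.3% to 98.5% identical, with Serpina1a and Serpina1c the closest pair.

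The Serpina3 copies differ far more in the same stretch. In the next set capitals mark bases that differ from Serpina3k, position by position. Serpina3c lacks the motif of the hinge and was placed by alignment to Serpina3m, and its best alignment to Serpina3k has gaps.
Serpina3k: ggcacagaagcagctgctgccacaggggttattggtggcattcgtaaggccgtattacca
Serpina3m: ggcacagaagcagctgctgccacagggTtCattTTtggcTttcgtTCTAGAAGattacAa
Serpina3n: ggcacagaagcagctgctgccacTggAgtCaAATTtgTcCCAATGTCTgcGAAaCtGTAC
Serpina3c: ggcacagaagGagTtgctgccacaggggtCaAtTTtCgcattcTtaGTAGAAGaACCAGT
These also lie in exon 5 of 5 on chromosome 12, and that of Serpina3k spans 104345269 to 104345328 on the plus strand in GRCm38. Serpina3m differed from Serpina3k at 14 of 60 bases, Serpina3c at 21 and Serpina3n at 25. The 6 pairs among these genes were 82.7% to 91.0% identical over the coding sequence. Of all windows of 50 bases in the Serpina1a transcript, 80.9% also occurred in a transcript of another gene, against 79.3% for Serpina1c, 50.9% for Serpina1d, 47.1% for Serpina1b and 37.9% for Serpina1e. The share was 4.25% for Serpina3c, 6.90% for Serpina3n, 14.04% for Serpina3k and 19.1% for Serpina3m. Reads are hardest to assign for Serpina1a and Serpina1c, so values of single Serpina1 copies are uncertain and their sum is given with them.

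Of the 26 genes, 19 had a promoter entry of 300 bases, from 250 before to 50 after the start. The letters TTCNNNGAA, a core that STAT factors bind, were on either strand in 3 of these 19 (Serpina11, Serpina3f and Serpina3g) and in 8.30% of all 32851 RefSeq promoters (GRCm38.p6). TTGCNNAA, a form of the C/EBP site, was in 8 of 19 on either strand and in 10.8% of all. The 8 were Serpina1a, Serpina1b, Serpina1d, Serpina1e, Serpina3f, Serpina7, Serpina12 and Serpinc1. The Serpina1 copies are close in sequence, so their matches are not separate. Serpins were counted by gene and the shares of all by promoter entry, so the 2 are not like for like. A match is a description of letters and not a bound site.

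Values are FPKM (fragments scaled to length and library size), summed over the rows of a gene, with the 95% interval that Cufflinks gives within a library. The interval holds no spread between animals. The coverage column divided by FPKM gave 2.29 for Control and 2.93 for NP, a higher depth in NP. For the 16 serpin genes averaging 50 FPKM or more the upper part of the interval was 4.21% to 7.53% of the value, and for the 8 genes at 1 to 5 FPKM it was 18.0% to 62.6%. All 6 hepatocyte markers were above 0 in both libraries. Of these 5 had a log2 ratio above 0 and 1, Ass1, below 0, with a median of 0.29. Apoa1 was at 7597 FPKM in Control and 9479 in NP, Ttr at 2476 and 2986 FPKM, and Tat at 539 and 665 FPKM. Alb (albumin) was at 21660 FPKM in Control and 30741 in NP, Cps1 at 343 and 353 FPKM, and Ass1 at 67.5 and 41.0 FPKM, 1.64-fold lower. Folds and counts past 1.5-fold use log2((NP + 1)/(Control + 1)), which shrinks differences of low genes, while a ratio given for a single gene is that of the FPKM values themselves.

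The liver serpins as a whole kept nearly the same total. They summed to 20990 FPKM in Control and 20864 in NP, or 3.46% and 3.36% of the FPKM of all genes past the filter. Of that total the clade A cluster of chromosome 12 held 89.4% in Control and 88.4% in NP. The 16 abundant genes, averaging 50 FPKM or more, held 99.7% and 99.9%, and all 16 lay within 1.5-fold. Of all 1373 genes at that level 1289 lay within 1.5-fold, so this was common at that level. Serpin differences past 1.5-fold occurred among the 10 genes between 1 and 50 FPKM, of which 5 were lower in NP, 1 was higher and 4 were between.

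**Figure D1:**
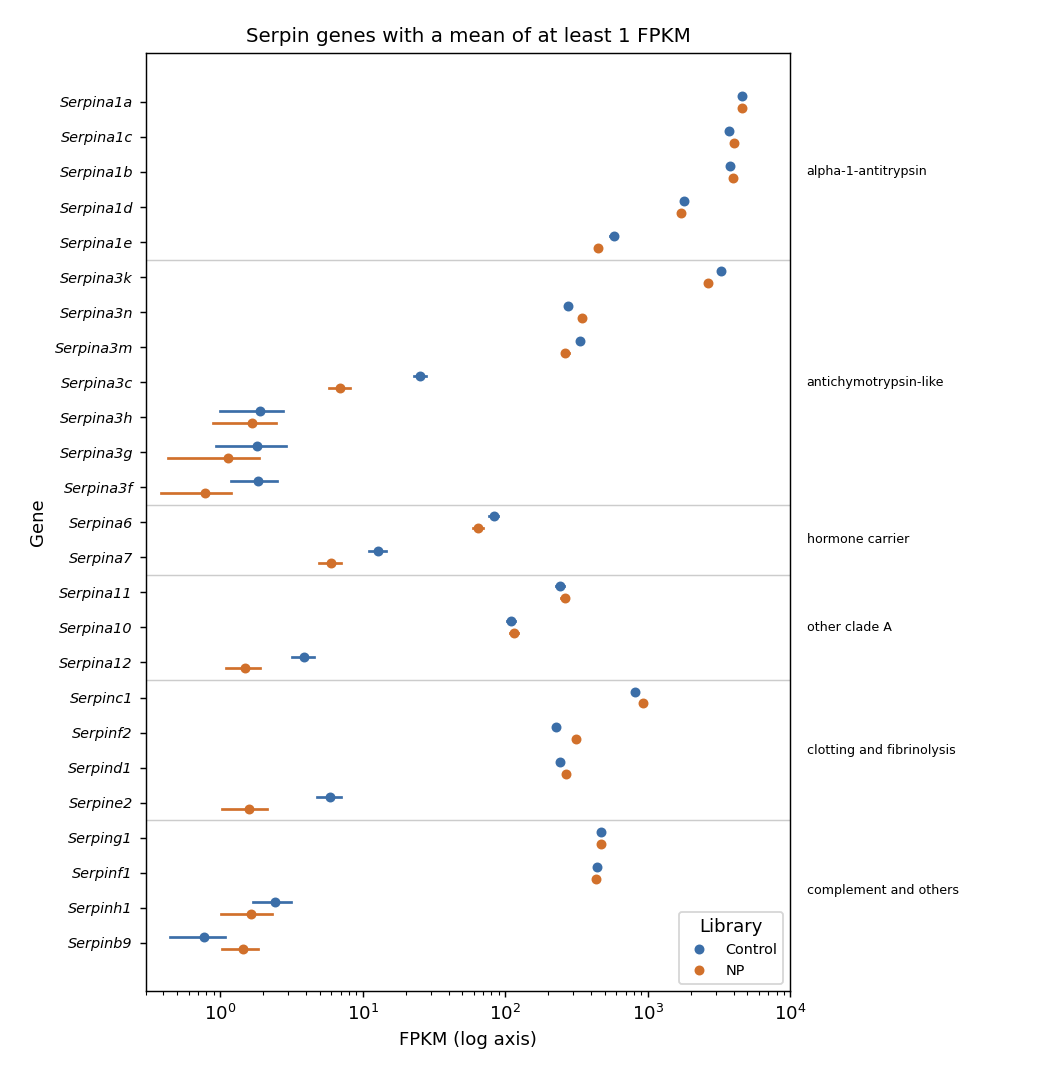
FPKM (log axis) of 25 of the 26 serpin genes averaging 1 FPKM or more, grouped by role, in the Control library (blue) and the NP library (orange). Points are FPKM and bars the 95% interval of Cufflinks within a library. Serpina3c, Serpine2, Serpina7 and Serpina12 have NP values well to the left of Control, while the abundant Serpina1 copies nearly coincide.

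Counted over all 26 genes, 1 was at least 1.5-fold higher in NP, against 3.59% of the 10544 genes past the filter, and 5 were at least 1.5-fold lower, against 5.33%. The 5 lower genes were Serpina3c, Serpine2, Serpina7, Serpina12 and Serpina3f. Serpina3f was below 1 FPKM in NP and passed the filter only through its Control value. At least 2-fold lower were 2 genes, Serpina3c and Serpine2, against 1.89%, and 0 were 2-fold higher, against 1.14%. On plain FPKM, 6 were 1.5-fold lower, against 7.42%, and 2 were higher, against 4.92%. The median log2 ratio was -0.05 over the 26 genes and -0.03 over all genes, but it was -0.53 for the 10 serpins between 1 and 50 FPKM and 0.04 for the 16 above. Among all 9171 genes between 1 and 50 FPKM, 5.68% were 1.5-fold lower and 3.66% higher. Intervals did not overlap for 13 serpins. NP was wholly above Control for 5, against 7.72% of all genes, and wholly below for 8, against 9.58%. Narrow intervals of abundant genes separate at small ratios. Among genes averaging 50 FPKM or more, 4 of 16 serpins were above and 4 below, against 19.2% and 14.9% of 1373 genes.

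**Figure D2:**
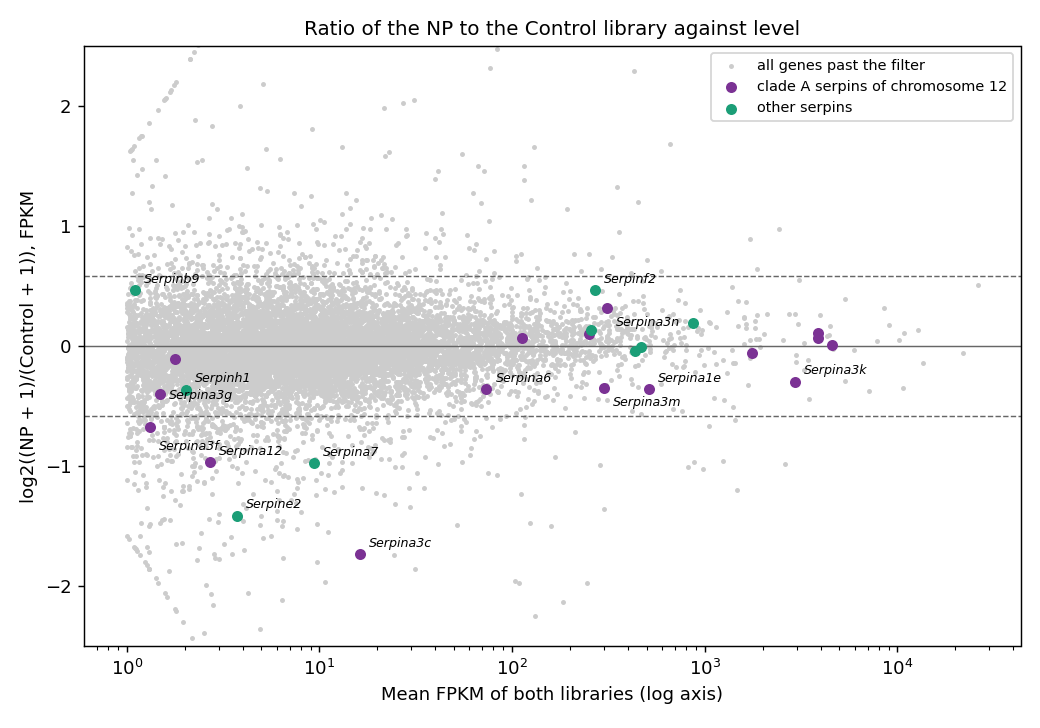
Log2 ratio of the NP to the Control library, log2((NP + 1)/(Control + 1)) of FPKM, against the mean FPKM of both libraries (log axis). Grey points are all genes past the filter, purple points clade A serpins of chromosome 12, green points other serpins, and dashed lines mark 1.5-fold; 67 genes lie outside the plotted range. Of the 26 serpins 25 are marked, and the 5 of them past the dashed lines have a mean below 50 FPKM.

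Alpha-1-antitrypsin, which protects tissue from neutrophil elastase, was the most abundant serpin product. Its copies differ in the loop printed above, and whether each of them inhibits elastase was not examined. The 5 copies summed to 14437 FPKM (14130–14745) in Control and 14734 (14418–15050) in NP, 1.02 times the Control level, and made up 68.8% and 70.6% of all serpin FPKM. Serpina1a (chromosome 12, 105091799 to 105104137 in mm9) was at 4564 FPKM (4372–4756) in Control and 4597 (4403–4790) in NP. It ranked 16th of all genes past the filter in Control and 17th in NP. Serpina1b was at 3770 (3610–3929) and 3944 (3778–4110) FPKM, Serpina1c at 3739 (3581–3898) and 4027 (3857–4197). Serpina1d was at 1790.0 (1712–1868) and 1718 (1644–1793) FPKM. For these 4 copies the intervals of the libraries overlapped.

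Serpina1e, the least abundant of the 5, had the lowest ratio among them. It was at 574 FPKM (546–602) in Control and 448 (426–470) in NP, 1.28-fold lower in NP, with intervals that did not overlap. Its share of the Serpina1 total was 3.98% in Control and 3.04% in NP. Of the 5 copies it had the lowest share of windows found in another gene. Serpina1f, a further copy in the same array, was listed at 0 in both libraries.

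The antichymotrypsin-like Serpina3 genes were lower in NP as a sum and differed in direction among themselves. All Serpina3 genes together were at 3897 FPKM (3758–4037) in Control and 3271 (3157–3386) in NP, 1.19-fold lower. Serpina3k, which binds tissue kallikrein, made up 83.5% of this sum in Control (chromosome 12, 105576696 to 105583951 in mm9). It was at 3253 FPKM (3115–3390) in Control and 2650 (2538–2762) in NP, 1.23-fold lower. Without it the other 6 genes past the filter summed to 644 and 620.1 FPKM. Serpina3m, its neighbour and the closest of the compared genes in sequence, was at 336 (319–353) and 264 (250.5–278) FPKM, 1.27-fold lower.

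Serpina3n, an inhibitor of granzyme B that is known to be induced in acute inflammation, went the other way. It was at 276 FPKM (263–290.3) in Control and 345 (329–362) in NP, 1.25 times the Control level. It was the single Serpina3 gene of the 7 past the filter with a log2 ratio above 0, and it lies next to Serpina3m at the end of the array (105644939–105652539). Serpina3m was thus above Serpina3n in Control and below it in NP, and in both libraries the intervals of the pair did not overlap.

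Serpina3c had the lowest log2(FPKM + 1) ratio of the 26 serpins, at -1.73. It was at 25.4 FPKM (22.9–27.9) in Control and 6.93 (5.77–8.09) in NP, 3.66-fold lower, and all of its FPKM lay in 1 transcript row. It lies at 105384592 to 105392080 in mm9, between the Serpina1 and Serpina3k ends of the cluster. Serpina3f was at 1.85 FPKM (1.19–2.51) in Control and 0.789 (0.386–1.19) in NP, 2.34-fold lower with intervals that just touched. Serpina3g, an inhibitor of cysteine cathepsins in leukocytes, was at 1.82 and 1.14 FPKM, and Serpina3h, annotated as a pseudogene transcript in GENCODE M21, at 1.89 and 1.68 FPKM, both with overlapping intervals.

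**Figure D3:**
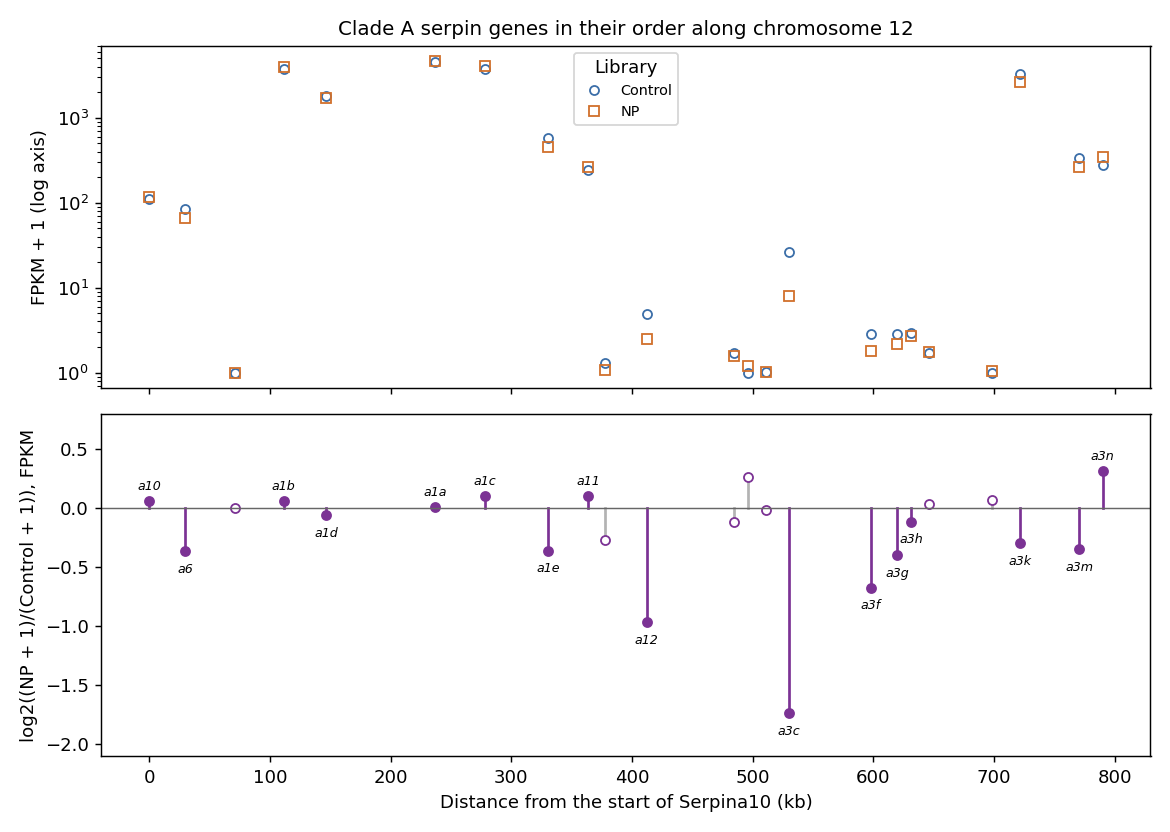
The 23 clade A serpin genes by distance from the start of Serpina10 along chromosome 12 (kb). Upper panel, FPKM + 1 on a log axis in Control (circles) and NP (squares); lower panel, log2((NP + 1)/(Control + 1)), filled for the 16 genes past the filter and open for the 7 below it. The 3 genes with the lowest ratios, Serpina3c, Serpina12 and Serpina3f, lie in the middle of the cluster, between the abundant genes at its ends.

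The cluster spans 798 kb, from 104854885 to 105652539. Of its 16 genes past the filter, 3 were at least 1.5-fold lower, against 5.33% of all genes, and 0 higher, against 3.59%. Log2 ratios of 10 were below 0 and of 6 above, against 5730 and 4814 of all 10544 genes past the filter. The 16 cluster genes had a median of -0.20, while the 10 other serpin genes had a median of 0.06. The cluster median rests on low genes: it was -0.02 for cluster genes that averaged 5 FPKM or more. NP intervals were wholly below Control for 6 of the 16 and above for 1, Serpina3n, against 9.58% and 7.72% of all genes, or 14.9% and 19.2% of those averaging 50 FPKM or more. Genes below the limit lie among abundant ones. Serpina5, Serpina3a and Serpina3b, which lie just before Serpina3c, were all below 1 FPKM in both libraries.

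Both hormone carriers were lower in NP. Serpina6 encodes corticosteroid-binding globulin, which transports glucocorticoids in plasma (chromosome 12, 104884840 to 104895422). It was at 82.9 FPKM (77.0–88.8) in Control and 64.4 (59.5–69.2) in NP, 1.29-fold lower. Its row for the span of the whole gene, which can take intronic reads, was at 3.41 and 1.20 FPKM. Serpina7 encodes thyroxine-binding globulin and is the single clade A gene outside the cluster, on chromosome X. It was at 12.8 FPKM (11.1–14.5) in Control and 6.02 (4.97–7.08) in NP, 2.12-fold lower. Intervals did not overlap for either gene.

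Of the other clade A genes, Serpina10 and Serpina11 had overlapping intervals and Serpina12 did not. Serpina10, which inhibits coagulation factor X in its active form together with protein Z, was at 109.8 FPKM (103–117) in Control and 115 (108–122) in NP. Its cofactor Proz was at 92.3 and 94.96 FPKM. Serpina11 was at 243 (228–258) and 261 (248–274) FPKM. Serpina12 encodes vaspin, described as an adipokine that inhibits a kallikrein. It was at 3.88 FPKM (3.18–4.58) in Control and 1.498 (1.10–1.90) in NP, 2.59-fold lower. The fat marker Adipoq was at 0.0183 and 0.0820 FPKM.

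Of the clotting and fibrinolysis serpins, Serpinc1, Serpind1 and Serpinf2 were higher in NP and Serpine2 was lower, with no overlap of intervals in these 4. Serpinc1 encodes antithrombin, the main inhibitor of thrombin (chromosome 1, 162908737 to 162933141). It was at 807 FPKM (771–842) in Control and 923 (883–964) in NP, 1.14 times the Control level. Serpind1, heparin cofactor, was at 244 (233–255) and 267 (256–279) FPKM, 1.10 times the Control level with intervals barely apart. The largest ratio among abundant serpins was that of Serpinf2, which encodes antiplasmin, the inhibitor of plasmin (chromosome 11, 75245234 to 75253093). It was at 227 FPKM (216–238) in Control and 315 (300–330) in NP, 1.39 times the Control level. Plg, which encodes the precursor of plasmin, was at 925 and 1014 FPKM.

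Serpine2 encodes protease nexin, an inhibitor of thrombin bound to cell surfaces (chromosome 1). It was at 5.89 FPKM (4.76–7.02) in Control and 1.59 (1.03–2.15) in NP, 3.71-fold lower, and all of its FPKM lay in 1 transcript row.

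**Figure D4:**
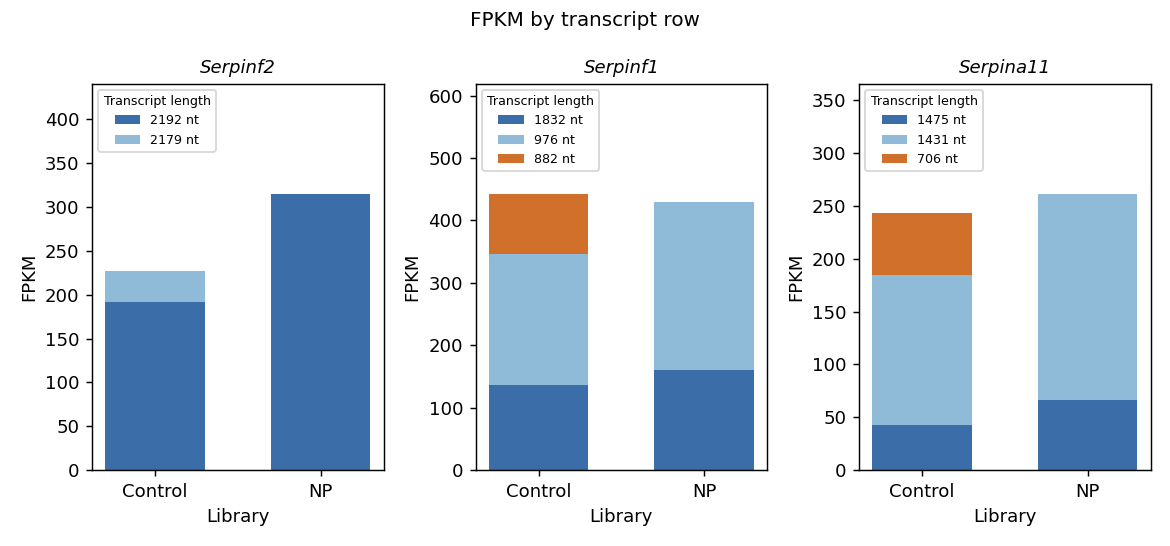
FPKM by transcript row of Serpinf2, Serpinf1 and Serpina11 in the Control and NP libraries, stacked by transcript length. In each gene 1 transcript row is present in Control and listed at 0 in NP: 35.7, 95.5 and 58.0 FPKM in Control.

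In 3 of these genes a transcript row was listed at 0 in NP only. Of the 24 transcript rows of serpin genes past the filter at 10 FPKM or more in a library, these 3 were at 0 in NP and 0 were at 0 in Control. The share of such rows over all genes was not counted, so how common they are in these libraries is not known. In Serpinf2 it was a row of 2179 nt at 35.7 FPKM in Control, and the remaining row of 2192 nt was at 191 (181–201) in Control and 315 in NP, 1.65 times as high. In Serpinf1 it was a row of 882 nt at 95.5 FPKM, and the other rows, of 976 and 1832 nt, were at ratios of 1.28 and 1.18. In Serpina11 it was a row of 706 nt at 58.0 FPKM, and its other rows were at ratios of 1.37 and 1.55. An exact 0 can be a failed estimate, so the sums over rows are used as gene values. Weighted by row length, the ratio of the gene was 1.39 for Serpinf2, 1.03 for Serpinf1 and 1.22 for Serpina11.

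The remaining serpins had overlapping intervals when summed over rows. Serping1 encodes C1 inhibitor, which restrains complement and the contact system of clotting. It was at 469 FPKM (446–491) in Control and 466 (444–488) in NP, the ratio nearest to 1 of the serpins past the filter, at 0.993. Serpinf1 encodes pigment epithelium-derived factor, a non-inhibitory serpin that restrains blood vessel growth. It was at 442 (421–463) and 429 (410–449) FPKM. Serpinh1, the collagen chaperone of the endoplasmic reticulum, was at 2.41 FPKM (1.70–3.12) in Control and 1.65 (1.01–2.30) in NP. Its row of 2264 nt, the higher one in Control, was at 2.41 FPKM (1.70–3.12) and 0.906 (0.425–1.39), with intervals apart, while NP held 0.749 FPKM in a row of 2391 nt that Control listed at 0. Serpinb9, an intracellular inhibitor of granzyme B, was at 0.768 (0.446–1.09) and 1.44 (1.02–1.85) FPKM, 1.87 times the Control level. It was below 1 FPKM in Control and passed the filter only through its NP value.

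The other 35 serpin genes had a mean below 1 FPKM. Of these 20 were listed at 0 in both libraries, 4 at 0 in Control only and 11 were above 0 in both. Serpinb9, with a mean of 1.10 FPKM, was just inside the limit, and Serpinb1a, an inhibitor of neutrophil proteases, was just outside at 0.943 FPKM in Control and 0.942 in NP. Clade B held 26 genes, of which 1 was past the filter and 17 were listed at 0 in both. Serpinb6a, an inhibitor widely expressed inside cells, was listed at 0 in all 17 of its rows in both libraries, and such a 0 may not be a true absence.

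Genes that act with serpins were counted from lists drawn up by function. For comparison, 3.59% of all genes were past 1.5-fold upwards and 5.33% downwards, and their median was -0.03. Of 14 target proteases past the filter, 0 were 1.5-fold higher or lower, with a median of 0.09. F2, which encodes prothrombin, was at 735 and 851 FPKM. Of 20 other protease inhibitors 3 were higher and 1 lower, with a median of 0.17. The highest by mean FPKM of both libraries were Ahsg, which encodes fetuin-A, at 4218 and 4739 FPKM, and Ambp, the precursor of bikunin, at 1696 and 2026 FPKM. Mug2, a murinoglobulin, was at 34.1 FPKM in Control and 98.5 in NP, and the inter-alpha-trypsin inhibitor chains Itih4 (378 and 622 FPKM) and Itih3 (225 and 352 FPKM) were the other higher members. Tfpi, an inhibitor of the tissue factor pathway made by endothelium, was the lower one, at 3.30 and 1.68 FPKM. Of 6 cofactors and clearance receptors 1 was higher, Vldlr, at 2.1999 and 3.91 FPKM. The highest of this list by mean FPKM were Vtn, vitronectin, at 983 and 1129 FPKM and Sdc4, a syndecan, at 124 and 169 FPKM. Of 10 regulators of hepatocyte serpin genes 0 were past 1.5-fold on the log2(FPKM + 1) scale, among them Hnf4a at 200.1 and 248 FPKM, Cebpa at 153 and 118 FPKM, Cebpb at 51.5 and 77.7 FPKM and Stat3 at 19.2 and 27.4 FPKM. By plain FPKM Cebpb was just past it. Agt, angiotensinogen, which is a serpin by structure but not by symbol, was at 223 and 269 FPKM.

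**Figure D5:**
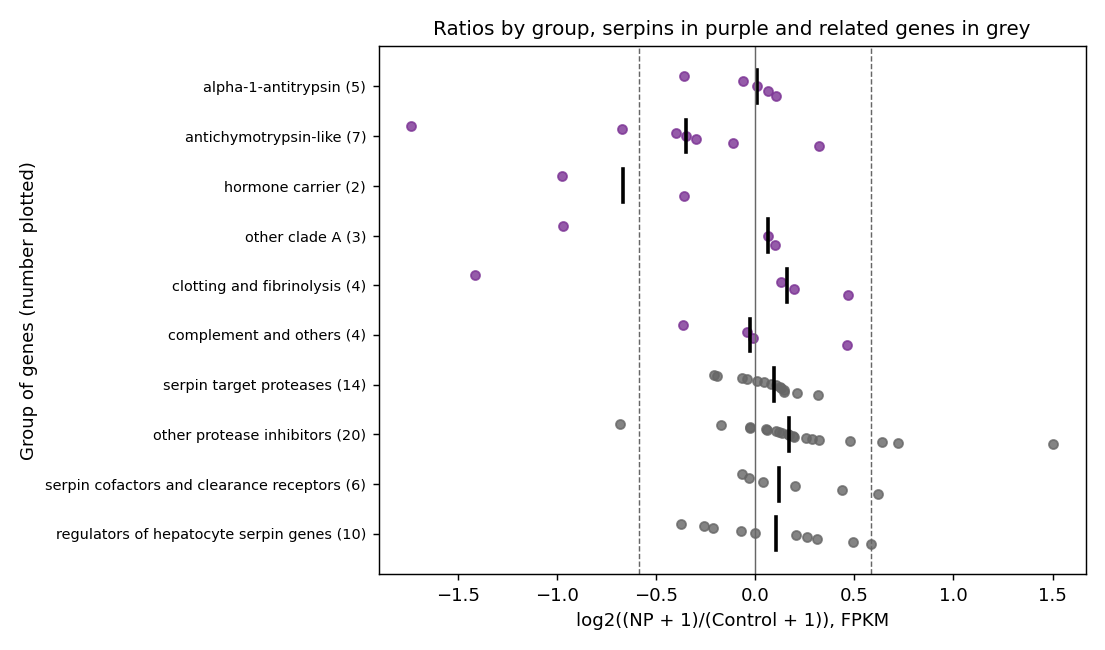
Log2((NP + 1)/(Control + 1)) of FPKM for 25 of the 26 serpin genes past the filter by role (purple) and for 4 lists of related genes (grey), each point a gene, black bars the median and dashed lines 1.5-fold. The Serpina3 and hormone carrier medians lie below 0, and those of the clotting serpins, the target proteases and the other inhibitors above it.

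Markers of cells other than hepatocytes were lower in NP for several types. Their values stand beside the low serpins that such cells can express, such as Serpine2, Serpina3g, Serpinh1 and Serpinb9. Serpinb9 was higher in NP and the others lower, and the summed intervals overlapped for all of them but Serpine2. All 6 sinusoidal endothelial markers had a log2 ratio below 0, as did 5117 of all 9171 genes between 1 and 50 FPKM. On log2(FPKM + 1) 0 of the 6 were 1.5-fold lower, by plain FPKM 3 were, and intervals overlapped for 3. The 6 summed to 76.5 FPKM in Control and 54.3 in NP, of which Clec4g held 44.6 and 30.6. The 6 Kupffer cell markers found summed to 32.3 and 16.4 FPKM, the 6 stellate cell markers to 89.0 and 73.3 FPKM and the 3 platelet markers to 5.31 and 1.90 FPKM, and 0 of these were at 0. Dcn held most of the stellate sum, at 70.8 and 57.7 FPKM. Col3a1 went the other way, at 1.32 and 1.83 FPKM with overlapping intervals. The 6 neutrophil markers summed to 4.43 and 6.03 FPKM, with Ngp, Camp and Ltf at 0 in both, and the 6 B and T cell markers to 2.25 and 2.105 FPKM. The 5 cholangiocyte markers summed to 17.6 and 14.2 FPKM, and the 3 mesothelial and fat markers to 0.242 and 0.171 FPKM, with Upk3b listed at 0 in Control. Their part in the serpin values was not tested, and in bulk liver fewer cells of a type and less RNA per cell cannot be told apart.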

How the data were processed

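One liver RNA-seq library per group was compared. Per the labels' protocols, RNA came from snap-frozen liver (Trizol) and went into Illumina TruSeq libraries. The submitters' processing notes list TopHat2 2.1.0, Cufflinks 2.2.1.0 and mm9. Their settings, the read length, strand and fragment totals are not given in the sources used. The deposited tables hold FPKM with a 95% interval per row and read coverage, a signal not scaled to library size, per the file headers.

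FPKM of all rows of a gene were summed and half-widths combined in quadrature, without the covariance between rows. Limits of rows at 0 were not used. The filter asked for an average of 1 FPKM, OK status and a row of at least 300 nt, leaving out small RNA names (10544 of 37146). Starts were converted to count from 1. No test or p-value was possible, so size rules of 1.5-fold and 2-fold on log2(FPKM + 1) were used. Every serpin past the filter is named, except 1 that is not reported here by name and is counted in the totals. Of the lists of related genes, members past 1.5-fold and the 2 highest by FPKM are named. Cebpb, past 1.5-fold by plain FPKM only, Proz, Stat3 and single markers were chosen after their values were seen. Members, lists and rules were chosen with earlier results of these data known. Sequences were matched by transcript identifier (GENCODE M21) or symbol (RefSeq); windows of 50 bases were compared with all GENCODE transcripts on both strands. Python 3.11.15, pandas 2.3.3, numpy 2.4.6, biopython 1.88 and matplotlib 3.10.9 were used.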

Additional observations from a re-analysis of the deposited data

How the results depend on the processing

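The results were recomputed under 11 listed alternatives and 1 added after seeing the data, the use of upper limits for rows at 0. Of 289 values of named genes 286 moved by no more than the summed half-widths of both libraries' intervals, taken on the log2(FPKM + 1) scale. Of the genes past 1.5-fold 0 changed direction. Alternatives that changed only filters, summed copies or used limits of rows at 0 could not move the ratio of a gene still named. Many of the 286 were thus fixed in advance. Of 108 summary values 95 kept their value or stayed near it. With a pseudocount of 0.1, 2 serpins were 1.5-fold higher and 5 were 2-fold lower. With none, 2 were 1.5-fold higher, 1 was 2-fold higher and 5 were 2-fold lower, since low genes are shrunk less. Under these settings Serpina3g (-0.63 and -0.67) and Serpinb9 (0.83 and 0.91) were past 1.5-fold. By plain FPKM 4.92% of all genes were 1.5-fold higher and 7.42% lower. Other shares of all genes under the alternatives were not counted, so changes in the serpin counts have no background. With a mean of at least 5 FPKM, 18 serpins remained, 0 of them 1.5-fold higher, 2 lower by 1.5-fold and 1 by 2-fold, and the median of the chromosome 12 cluster moved from -0.20 to -0.02426. With no filter on low values that median was -0.08493. With the copies of Serpina1, of Serpina3 and of lettered clade B genes each summed, 16 entries remained. Of these 3 were 1.5-fold lower, 1 was 2-fold lower and 5 had an NP interval wholly below Control. Serpina3c and Serpina3f were then part of the Serpina3 sum, of which Serpina3k made up 83.5% in Control, and were not counted singly. With the highest row of each gene in place of the sum, Serpinf2 (0.72) and Serpinh1 (-0.84, with intervals then apart) were past 1.5-fold, Serpina11 was at 0.45 and Serpinf1 changed sign (0.35). Under 3 scalings of NP Serping1, near 0, changed sign (0.02 in each). No paired analysis was possible because each group had 1 library, and for the same reason no replicate could be left out. Depth limits the genes at 1 to 5 FPKM, whose intervals are wide.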
